A study of Rattus norvegicus with 8 samples.

Results

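Kdr, Cldn5, Sox17, Lyve1, Esam, Tie1, Tek, Pecam1, Cdh5 and Stab2 are genes by which the lining cells of blood vessels, and those of the liver's sinusoids, are usually recognised. They were chosen by name, and every non-control array probe whose RefSeq transcript carries one of the 10 symbols was taken. That gave 13 probes for 9 genes among 41012 non-control probes, and Stab2 is not analysed here. Of the 13 probes, 9 probes of 7 genes were kept for testing, among 24832 kept probes in all. Kept probes had a signal that the scanner software called well above background in vitro or on 3 or more of the 7 liver arrays.

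RNA was measured in adipose-tissue-derived mesenchymal stem cells (ATSC), fibroblast-like stromal cells that were freed with collagenase from subcutaneous fat of male rats of the Sprague-Dawley stock and then cultured. The 8 samples, each on its own single-colour rat array, are 3 from cells on liver after ischemia-reperfusion injury (IRI, a stop and return of blood flow), 4 from cells on liver without it (non-IRI) and 1 from cells kept in culture (in vitro). The labels give no time after injury, no age, no strain for the livers and no word on how cells were placed on or taken from the liver, and they leave unsaid whether replicates came from separate animals. P-values therefore measure the spread between these samples, and the single in vitro array was taken to have the spread of the liver arrays.

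Blood vessels are lined by endothelial cells, held together by junction proteins such as the cadherin Cdh5, the claudin Cldn5, and the adhesion molecules Pecam1 and Esam. Their growth is steered by receptor tyrosine kinases, of which Kdr binds vascular endothelial growth factor, Tek binds angiopoietins and Tie1 works beside Tek, and by transcription factors such as Sox17. The endothelium of liver sinusoids is unusual in being open and scavenging, with receptors such as Lyve1, a hyaluronan receptor also found on lymphatic vessels and on some tissue macrophages, and Stab2.

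The arrays differed little in detection, with 53.5% to 59.7% of spots well above background and a 75th percentile of signal between 156 and 291 intensity units. All levels below are log2 signal relative to the 75th percentile of the same array, so that 0 is a bright spot and -6.22 to -5.07, depending on the array, is the dimmest signal well above background. Levels of different probes are not compared, since probes differ in how brightly they report. The 12 kept stromal markers were all well above background on every array, with a mean of 4.71 to 5.44 on liver arrays and 5.01 in vitro. The liver arrays also carried markers of other cells. The macrophage list (11 of 12 genes kept) averaged 3.67 to 4.27 in IRI, 2.61 to 3.90 in non-IRI and -4.79 in vitro, and the hepatocyte list (13 of 16 genes kept) averaged 0.33 to 0.49, -3.17 to -1.43 and -4.29. IRI 1 to 3 and in vitro share 1 slide and its scan, and non-IRI 1 to 4 share another, so that the injury and the slide cannot be told apart, nor can non-IRI against in vitro and the slide.

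To place the genes, the 250 bases before the transcription start of a receptor kinase and a junction gene that stood apart on the array non-IRI 4 (Kdr and Cldn5) are printed beside those of a receptor kinase and a sinusoidal receptor that did not (Tie1 and Lyve1). They come from RefSeq (build GRCr8), which matched 5.0 of the 10.0 genes, and run 5′ to 3′ on the gene's own strand. Capitals mark the letters GGAAG or, on the other strand, CTTCC. This is 1 form of the site that ETS transcription factors such as Erg and Fli1 are known to bind. Other forms of that site are not marked or counted.
Kdr (chr14:32571813-32572062, plus strand): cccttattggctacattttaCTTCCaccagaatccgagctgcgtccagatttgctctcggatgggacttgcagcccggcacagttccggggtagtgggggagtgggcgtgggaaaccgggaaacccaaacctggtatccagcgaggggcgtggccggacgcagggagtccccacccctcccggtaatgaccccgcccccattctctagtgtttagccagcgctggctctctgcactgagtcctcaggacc
Cldn5 (chr11:95718599-95718848, minus strand): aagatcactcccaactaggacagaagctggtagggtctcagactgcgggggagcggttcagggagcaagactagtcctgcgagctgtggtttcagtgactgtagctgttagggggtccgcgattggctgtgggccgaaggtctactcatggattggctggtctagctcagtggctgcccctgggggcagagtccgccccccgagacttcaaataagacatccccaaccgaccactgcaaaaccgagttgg
Tie1 (chr5:137304982-137305231, minus strand): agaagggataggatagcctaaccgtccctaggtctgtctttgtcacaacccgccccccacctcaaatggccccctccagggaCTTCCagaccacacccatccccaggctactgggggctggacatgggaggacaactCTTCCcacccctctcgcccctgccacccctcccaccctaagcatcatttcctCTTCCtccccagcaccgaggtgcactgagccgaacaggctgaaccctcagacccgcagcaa
Lyve1 (chr1:174410978-174411227, minus strand): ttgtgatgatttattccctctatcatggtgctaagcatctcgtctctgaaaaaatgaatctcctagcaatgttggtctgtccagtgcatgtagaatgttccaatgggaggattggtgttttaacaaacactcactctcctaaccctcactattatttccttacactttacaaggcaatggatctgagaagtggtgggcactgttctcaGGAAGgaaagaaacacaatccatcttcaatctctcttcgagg
The marked letters were found 1 time in the window of Kdr, 3 times in that of Tie1 and 1 time in that of Lyve1. They were found 0 times in that of Cldn5. Of 33469.0 rat promoters cut to the same length, 63.3% hold these letters. A match is only a stretch of letters, and its absence says only that these letters are not in this window.

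The vascular endothelial growth factor receptor Kdr was the only kept member well above background on all 8 arrays. Its levels were 3.69, 3.91 and 3.32 in IRI 1 to 3, 3.98, 4.07, 4.10 and 5.39 in non-IRI 1 to 4, and 0.66 in vitro. Each liver array lay above the culture array, each non-IRI array lay above each IRI array, and non-IRI 4 lay 1.29 above the next highest. Against in vitro, Kdr was higher by 2.97 ± 0.55 (SE) on the log2 scale in IRI, or 7.86-fold (limma, Benjamini-Hochberg adjusted p = 0.00626, where a value under 0.05 passes), and by 3.72 ± 0.53 in non-IRI, or 13.2-fold (adjusted p = 0.00176). The difference between IRI and non-IRI was -0.75 ± 0.36 (adjusted p = 0.384) and did not pass. Without non-IRI 4 it was -0.41 (adjusted p = 0.460).

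Tie1 and Tek are the other receptor kinases. The Tie1 probe A_44_P520235 gave -2.41, -0.99 and -1.72 in IRI, -2.30, -3.34, -1.92 and -2.00 in non-IRI, and -6.64 in vitro, where it was not well above background. The second Tie1 probe, A_44_P395771, gave -3.07, -2.96 and -2.54 in IRI, -3.57, -4.65, -2.83 and -3.14 in non-IRI, and -6.08 in vitro, again not well above background. Both probes put non-IRI 2 lowest among the liver arrays, the liver groups overlapped on both, and non-IRI 4 lay within the range of the rest. On A_44_P520235, Tie1 was at least 10.3-fold higher in IRI than in vitro (adjusted p = 0.00139) and at least 6.43-fold higher in non-IRI (adjusted p = 0.00218). On A_44_P395771 the bounds were at least 4.65-fold (adjusted p = 0.00777) and at least 2.88-fold (adjusted p = 0.0155). These are lower bounds because the culture array was set to its dimmest signal well above background, or to its own value where that was higher. Here and below, the adjusted p beside a bound comes from the fit, which used the culture array's own value. Neither Tie1 probe separated IRI from non-IRI, with differences of 0.68 ± 0.43 (adjusted p = 0.516) and 0.69 ± 0.41 (adjusted p = 0.486). Neither Tek probe was well above background on any of the 8 arrays, and no level is given for Tek.

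Among the junction genes, Esam, an adhesion molecule of endothelium and platelets, showed the clearest contrast between liver and culture. Its levels were 0.95, 0.84 and 1.47 in IRI, 1.21, 0.22, 1.09 and 1.39 in non-IRI, and -4.97 in vitro, where it was not well above background. Esam was at least 66.7-fold higher in IRI (adjusted p = 7.62e-05) and at least 61.7-fold higher in non-IRI (adjusted p = 7.06e-05) than in vitro. Between the liver groups the arrays overlapped and the difference was 0.11 ± 0.31 (adjusted p = 0.909). The platelet list, whose cells also carry Esam, had 4 of 8 genes kept. It averaged 0.55 to 1.16 in IRI, 0.89 to 1.00 in non-IRI and -3.93 in vitro. Pf4, Gp9 and Treml1 were higher on each liver array than in vitro. Gp1bb was lower, at 1.94 to 2.48 on liver arrays and 3.34 in vitro. The part of platelets in the Esam difference was not tested.

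Cldn5, which seals the junctions of tight endothelium, varied most among the members. Its levels were -4.22, -3.95 and -6.78 in IRI, -2.68, -2.99, -5.12 and -0.05 in non-IRI, and -6.57 in vitro. It was well above background on IRI 2 and on non-IRI 1, 2 and 4 only, and non-IRI 4 lay 2.63 above the next highest array. With that spread, IRI differed from non-IRI by -2.27 ± 1.16 (adjusted p = 0.409). No fold against in vitro is given for Cldn5, since neither liver group was well above background on all its arrays. The fits against in vitro did not pass in IRI (adjusted p = 0.525) or in non-IRI (adjusted p = 0.114), and 0 of the 3 comparisons passed. The fits against in vitro passed with the replicate number as a block (adjusted p = 0.0124 and 0.00335) and, for non-IRI, without non-IRI 3 (adjusted p = 0.0440), but they use an in vitro value that was not well above background.

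The endothelial cadherin Cdh5 gave -4.92, -4.04 and -4.14 in IRI, -3.94, -3.98, -4.49 and -2.07 in non-IRI, and -5.07 in vitro. IRI 1 and in vitro were not well above background, and non-IRI 4 lay 1.86 above the next highest array. IRI differed from non-IRI by -0.75 ± 0.55 (adjusted p = 0.587), and without non-IRI 4 by -0.23 (adjusted p = 0.816). Cdh5 was at least 2.72-fold higher in non-IRI than in vitro, and the fit did not pass (adjusted p = 0.198). For IRI against in vitro no fold is given, since IRI 1 was not well above background, and the fit did not pass (adjusted p = 0.556). Pecam1, an adhesion molecule at the same junctions, was well above background on non-IRI 4 only, at -4.23, and lay between -6.98 and -5.02 on the other liver arrays and at -6.75 in vitro.

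The transcription factor Sox17, which takes part in arterial and hematopoietic endothelium, had 1 kept probe, A_44_P499350. It gave -6.39, -4.14 and -5.68 in IRI, -3.87, -2.48, -3.96 and -3.02 in non-IRI, and -5.85 in vitro. All 4 non-IRI arrays were well above background and lay above all 3 IRI arrays, of which only IRI 2 was well above background. The difference was -2.07 ± 0.57 and did not pass (adjusted p = 0.133). It passed with the replicate number as a block (adjusted p = 0.0482) and without IRI 2 (adjusted p = 0.0483), but IRI 1 and IRI 3 were not well above background, so that without IRI 2 the IRI group has only a bound. Sox17 was at least 3.34-fold higher in non-IRI than in vitro, where it was not well above background, and the fit did not pass (adjusted p = 0.0504). That fit passed with the block (adjusted p = 0.0373), without IRI 1 (adjusted p = 0.0385) and without IRI 2 (adjusted p = 0.0222). For IRI against in vitro no fold is given, since the IRI mean lay below the dimmest signal well above background in vitro (adjusted p = 0.724). The second Sox17 probe, A_44_P483712, was not well above background on any array.

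Lyve1 was measured with a pair of probes that ordered the non-IRI arrays alike. A_44_P588315 gave 3.17, 3.71 and 3.48 in IRI, 3.86, 2.92, 4.49 and 2.32 in non-IRI, and -6.36 in vitro. A_44_P156690 gave -1.24, -0.21 and -0.17 in IRI, -0.14, -1.28, 0.54 and -1.56 in non-IRI, and -6.27 in vitro. On both, non-IRI 3 was the highest and non-IRI 4 the lowest of the 7 liver arrays, and the culture array was not well above background. On A_44_P588315, Lyve1 was at least 369-fold higher in IRI (adjusted p = 6.83e-05) and at least 355-fold higher in non-IRI (adjusted p = 5.67e-05) than in vitro, and on A_44_P156690 at least 23.2-fold (adjusted p = 0.0019) and at least 22.1-fold higher (adjusted p = 0.00156). The liver groups overlapped, with differences of 0.06 ± 0.49 (adjusted p = 0.975) and 0.07 ± 0.54 (adjusted p = 0.970). The macrophage list followed the same order over the non-IRI arrays, at 3.17, 2.84, 3.90 and 2.61, and its part in Lyve1 was not tested.

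**Figure D1:**
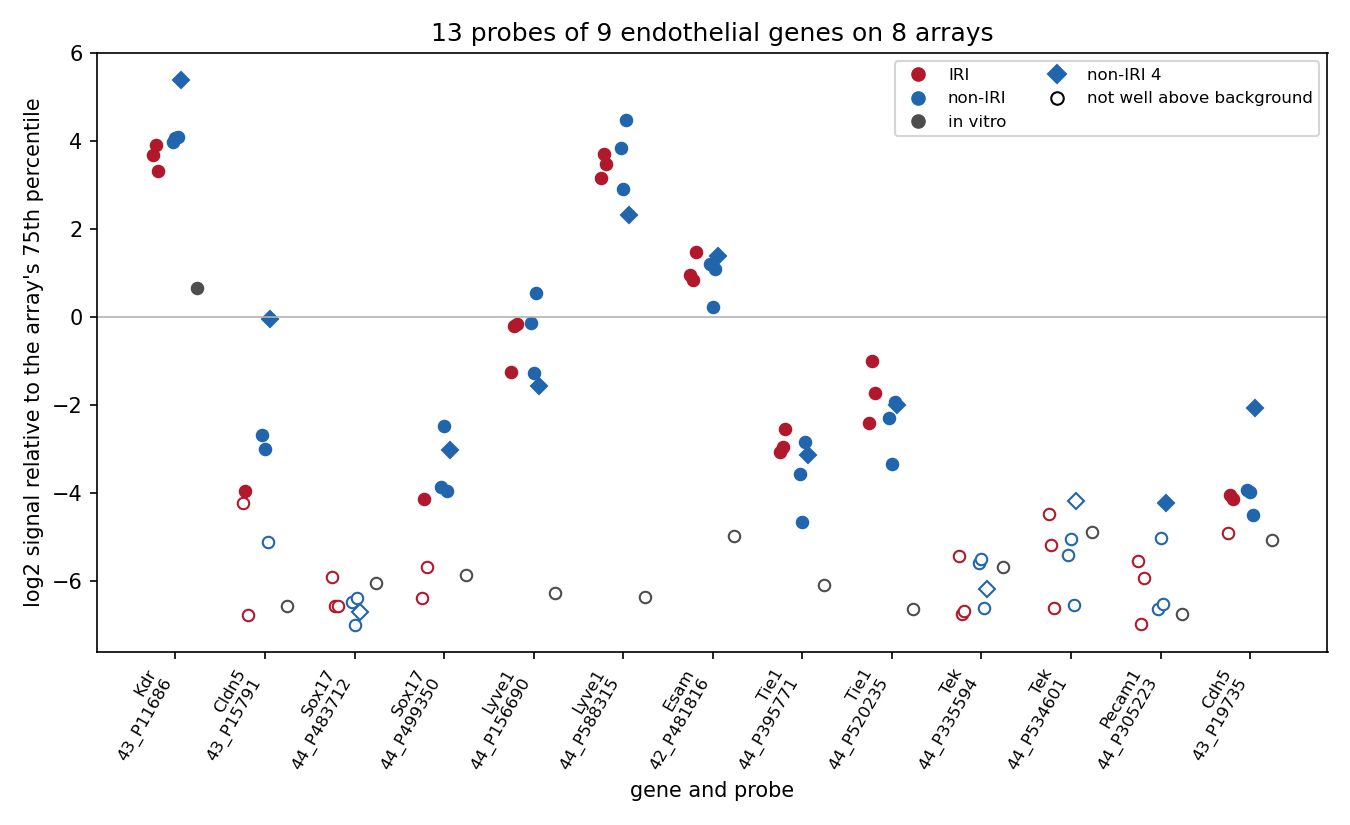
Log2 signal relative to the array's 75th percentile (vertical axis) for each of the 13 probes (horizontal axis) on the 8 arrays. Filled symbols are well above background and open ones are not. The diamond of non-IRI 4 is at the top for Kdr, Cldn5 and Cdh5. It is also at the top for the probes of Pecam1 and Tek (A_44_P534601, open), which were not kept. Among the liver arrays it is the lowest for both Lyve1 probes, above in vitro.

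Over the kept probes, 0 of 9 passed in IRI against non-IRI, where 2.82% of all probes passed (700 of 24832, 82 higher and 618 lower, and 3741 at an unadjusted p under 0.05). The members' differences ran from -2.27 to 0.69, with a median of 0.06 beside 0.02 for all probes. In IRI against in vitro 6 of 9 passed, all higher in liver, where 28% of all probes passed (3349 higher, 3590 lower). In non-IRI against in vitro 6 of 9 passed, all higher in liver, where 33.7% of all probes passed (3978 higher, 4395 lower). Of the 9 probes, 8 were not well above background in vitro and were kept through the liver arrays alone. A call of lower in liver was hardly open to those 8, so the direction of their calls was largely set by the filter. The 6 are the probes of Kdr, Lyve1, Esam and Tie1 in both comparisons, and without any 1 of the 7 liver arrays 6 of 9 still passed in IRI and 6 or 7 in non-IRI. The medians of the members' fitted differences were 3.23 and 3.86, beside -0.27 and -0.25 for all probes. Since 8 of the 9 probes were not well above background in vitro, the medians with those at their bounds were 2.97 and 2.68. These comparisons share the in vitro array. IRI and in vitro lie on 1 slide, and within that slide alone the count was also 6. With a background model (normexp) in place of the scanner software's subtraction, 3 of the 6 passed, those of Kdr, Esam and Lyve1 A_44_P588315, and the members' median differences were 0.97 and 0.84. In bulk RNA such as this, fewer cells of a type and less RNA per cell cannot be told apart.

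**Figure D2:**
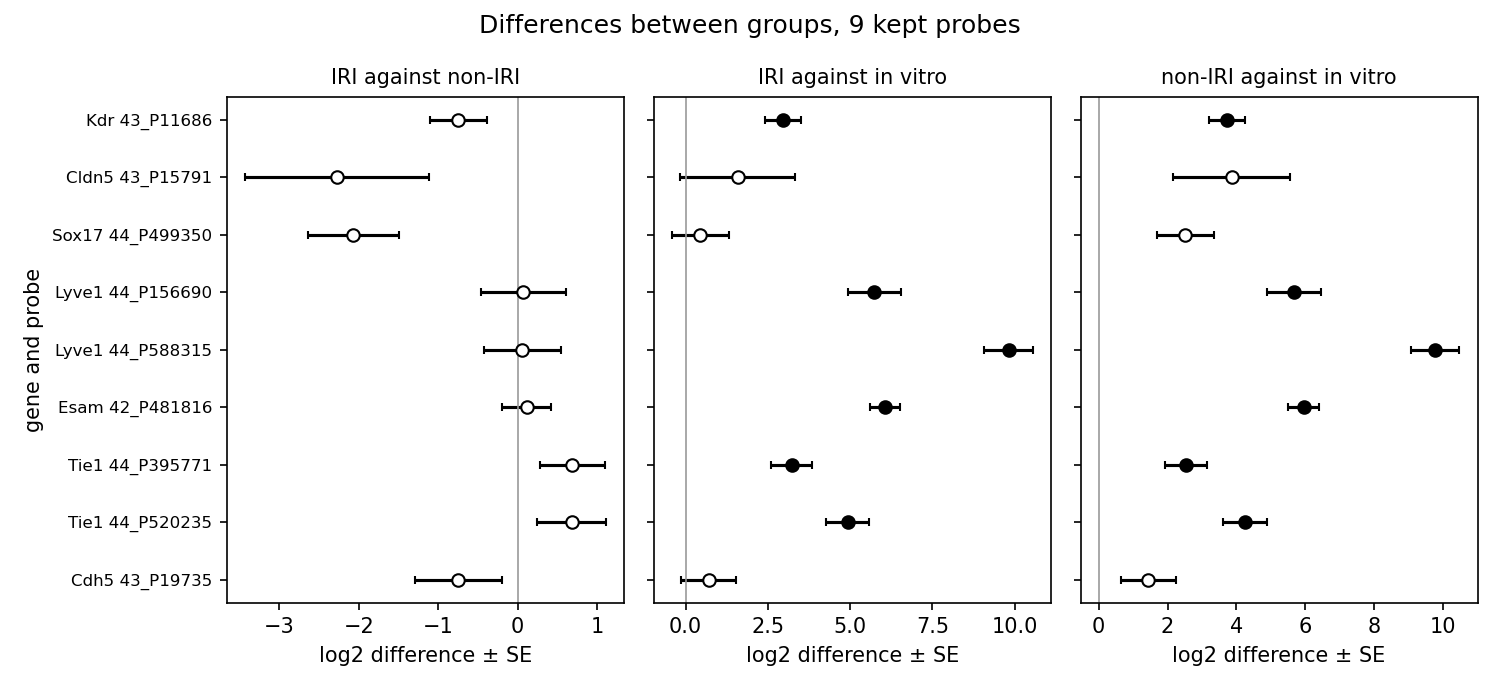
Log2 difference ± SE (horizontal axis) of the 9 kept probes in each comparison, filled where the adjusted p was under 0.05. Differences between IRI and non-IRI run from -2.27 to 0.69 with none filled. Against in vitro 6 of 9 are filled, where 8 of the 9 in vitro values were not well above background. Folds of those 8, where given in the text, are bounds. The horizontal scale differs between panels, and the in vitro array counts once in each of the last 2.

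The array non-IRI 4 stood apart for some members and not for others. It was already known to stand apart before the members were counted, so the counts describe 1 array, with no test. Kdr, Cldn5 and Cdh5 were higher on it than on each other liver array by over 1 on the log2 scale, 3 of 9 kept probes, where 0.383% of all probes were (95 of 24819). With normexp it was 3 of 9 where 24.4% of all probes were, and with bright background spots set to the array's median in that model 2 of 9 where 0.137% were. Of all kept probes, 0.439% were lower on it by over 1 than on each other liver array, and 0 of the 9 were. Both Lyve1 probes were lowest on it, by 0.60 and 0.28, and Esam, Tie1 and Sox17 lay within the range of the other arrays. Among the non-IRI arrays other than non-IRI 4, Kdr had a mean of 4.05 ± 0.06 (SD, n = 3), Cdh5 of -4.14 ± 0.31 and Cldn5 of -3.60 ± 1.33.

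The wider endothelial genes were taken as 5 lists chosen by name. Over the lists, 78 probes were kept, and 33 of them (42.3%) had their highest liver value on non-IRI 4, where 9.6% of all probes did. In the junction and surface list 11 of 16 probes did, in the list of notch, ephrin, apelin and vessel tone 10 of 17, among transcription factors 5 of 17, among growth factors and their receptors 4 of 13, and in the sinusoidal and lymphatic list 3 of 15. On other arrays, 6 of 13 growth factor and receptor probes were highest on IRI 2, 6 of 15 sinusoidal probes on IRI 3 and 5 of 17 transcription factor probes on non-IRI 1, and 4 of 15 sinusoidal probes were lowest on non-IRI 4. On non-IRI 4, 16 of the 78 exceeded each other liver array by over 1, and 0 of the 78 fell below each by over 1. With a background model (normexp) the count became 17 of 78 beside 24.4% of all probes, and with bright background spots set to the array's median in that model it was 8 of 78 beside 0.137%. This pattern was noticed in the values and is a description of 1 array, with no test.

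**Figure D3:**
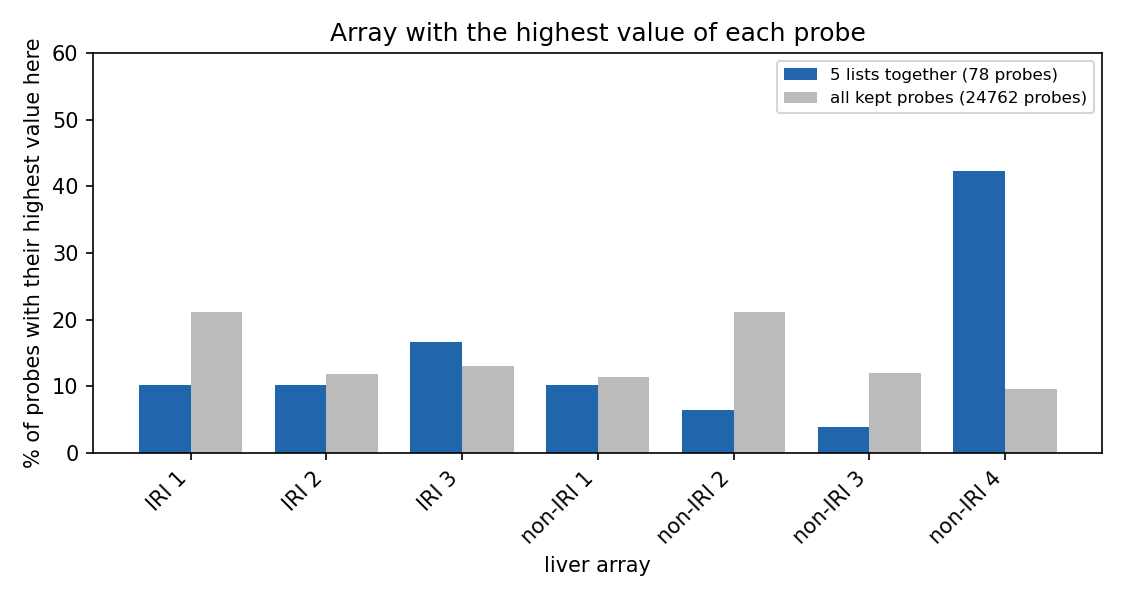
Share of probes (vertical axis, %) whose highest value over the 7 liver arrays lies on each array (horizontal axis), for 78 probes of 5 endothelial lists and for 24762 kept probes. On non-IRI 4 the shares are 42.3% and 9.6%, and on non-IRI 3 they are 3.85% and 12.0%.

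The 16 probes belong to 15 genes, named here after their values were seen. Nos3, the endothelial nitric oxide synthase, was at 0.96 on non-IRI 4, and at -3.54, -2.11 and -2.99 in IRI and -1.91, -2.71 and -3.69 in the other non-IRI arrays. Erg, an ETS factor of endothelium, was at 0.80, against -3.87, -2.13 and -3.68 in IRI and -1.76, -1.39 and -3.83 in non-IRI 1 to 3. Sox18, a relative of Sox17, was at 2.79 on the probe A_42_P623913, against -0.78, 0.72 and -0.81 in IRI and -0.28, 0.55 and -1.98 in non-IRI 1 to 3. These leads over the next highest array, of 2.87, 2.19 and 2.07, were the largest among the 16 together with that of the second Sox18 probe (2.07). The others lead by 1.03 to 1.95: the factor Sox7, the surface proteins Emcn and Mcam, the gap junction protein Gja4, the junction protein F11r, the receptors Notch4, Aplnr, Ramp2 and Gpr182, the liver endothelial gene Oit3, and the angiopoietins Angpt1 and Angpt2. Mcam is also on the pericyte list. The mean of that list ran from 0.10 to 0.84 on the other 6 liver arrays and reached 0.91 on non-IRI 4. That mean includes Mcam, the only kept gene of the list with its highest liver value on non-IRI 4. The part of the list's cells was not tested. Among the IRI arrays, IRI 2 was the highest for 16 of 16 probes, beside 37.4% of the 2378 kept probes that were highest on non-IRI 4, and among the non-IRI arrays non-IRI 3 was the lowest for 15 of 16, beside 59.5%. The erythroid list (4 of 7 genes kept) also stood apart on IRI 2, with a mean of 3.84 there, 0.47 on IRI 1 and -0.69 on IRI 3, and -3.13 to -1.10 in non-IRI and -5.18 in vitro; its part in this order was not tested. Kdr, Cldn5 and Cdh5 also had their highest IRI value on IRI 2, and Cldn5 and Cdh5 their lowest non-IRI value on non-IRI 3. This order was not particular to them. Sox17, Tie1 on A_44_P520235 and Lyve1 on A_44_P588315 also had their highest IRI value on IRI 2, though none was highest on non-IRI 4. Sox17 also had its lowest non-IRI value on non-IRI 3. The probes share the same 7 arrays, so that their agreement describes these samples.

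**Figure D4:**
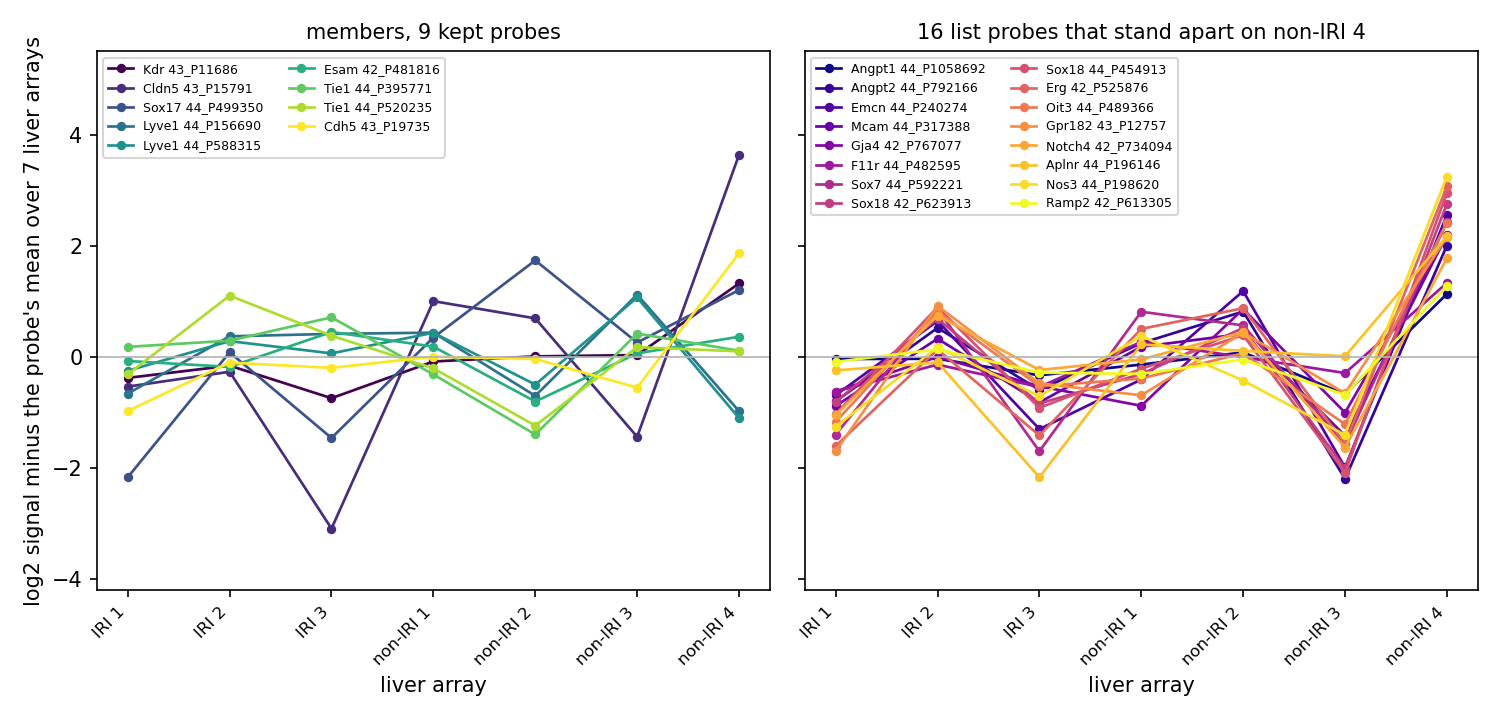
Log2 signal minus the probe's mean over the 7 liver arrays (vertical axis) on each liver array (horizontal axis), one line per probe, for the 9 kept member probes (left) and the 16 list probes that were chosen because they stood apart on non-IRI 4 (right). On the right, IRI 2 is the highest IRI array for 16 of 16 and non-IRI 3 the lowest non-IRI array for 15 of 16. On the left, the Lyve1, Tie1 and Esam probes take other courses. Sox17 is highest on non-IRI 2, and Kdr has its lowest non-IRI value on non-IRI 1.

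Some endothelial genes did not share this course. Hhex, a transcription factor of liver endothelium and other lineages, was at 2.70, 2.73 and 2.69 in IRI, 3.13, 2.72, 2.92 and 2.69 in non-IRI, and -6.40 in vitro, where it was not well above background. It was at least 220-fold higher than in vitro in IRI and at least 245-fold in non-IRI. The scavenger receptor Mrc1 on probe A_44_P635138, at 4.49 to 5.00 in IRI, 4.59 to 5.11 in non-IRI and -5.10 in vitro, was at least 888-fold higher in IRI and 1038-fold higher in non-IRI, and on A_43_P18738 at least 86.0-fold and 67.7-fold. Fcgr2b, the Fc receptor of sinusoidal endothelium and of immune cells, ran from 6.07 to 6.92 in IRI and 5.95 to 7.17 in non-IRI, and was higher than in vitro (-2.31) by 8.92 ± 0.58 and 8.85 ± 0.56. Cd93, found on endothelium and myeloid cells, was at 3.93, 4.11 and 3.70 in IRI and 3.89, 4.15, 3.98 and 4.51 in non-IRI, so that it too was highest on non-IRI 4, by 0.37, and on IRI 2 among the IRI arrays. It was higher than in vitro (-1.68) by 5.60 ± 0.30 and 5.82 ± 0.29. Mrc1, Fcgr2b and Cd93 are also expressed by macrophages, whose list averaged 2.61 to 4.27 on liver arrays and -4.79 in vitro, and the part of these cells was not tested.

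Counts of the lists against in vitro are read beside the 28% of all probes that passed in IRI (3349 higher and 3590 lower of 24821) and the 33.7% in non-IRI, and a list near those shares is not a result about that list. Probes of any list that were kept through the liver arrays alone could hardly be called lower in liver. In the sinusoidal list 6 of 15 probes were higher in IRI and 5 of 15 in non-IRI, with 0 lower. They included Dnase1l3, a secreted DNase of liver endothelium and macrophages, by 4.16 ± 0.43 and 4.89 ± 0.42. In the transcription factor list 5 of 17 were higher in each (Hhex, Gata4, Lyl1, Fli1 and Maf) and Klf4, which is induced by blood flow but is also expressed in many other cells, was lower, with differences of -2.27 ± 0.32 in IRI and -2.46 ± 0.31 in non-IRI. With the replicate block, Fli1 did not pass in non-IRI (adjusted p = 0.0524). Gata4, which directs sinusoidal endothelium, was at least 15.1-fold and 16.9-fold higher. In the junction list 4 of 16 were higher and 1 lower in IRI, and 6 and 2 in non-IRI. The higher ones included Icam2, an adhesion molecule of endothelium and leukocytes, at least 57.7-fold in IRI and 43.8-fold in non-IRI. The lower ones were Gja5, with differences of -4.87 ± 1.54 and -5.56 ± 1.49, and, in non-IRI only, Nectin2 (-1.39 ± 0.40). In the list of notch, ephrin, apelin and vessel tone 5 of 17 were higher and 4 lower in IRI, and 7 and 4 in non-IRI. The lower ones in IRI were Edn1, both Procr probes and Tfpi on A_44_P726985. Procr on A_44_P232897 differed by -1.92 ± 0.31 in IRI and by -1.37 ± 0.30 in non-IRI. Apln, the ligand of Aplnr, was higher by 4.28 ± 0.56 and 4.31 ± 0.54 on A_43_P12613 and by 4.26 ± 0.70 and 4.32 ± 0.67 on A_42_P637189, while Edn1, the vasoconstrictor endothelin, was lower, with differences of -5.44 ± 0.80 and -3.46 ± 0.78. Among growth factors and receptors 1 of 13 was higher (Angpt2 on A_44_P792166, while its second kept probe, A_43_P15980, did not pass) and 3 lower in IRI, and 1 and 4 in non-IRI. Vegfc, a growth factor of lymphatic vessels, was lower in non-IRI, with a difference of -1.19 ± 0.20 (adjusted p = 0.00408). In IRI against in vitro Vegfc (-0.87 ± 0.21) passed with all arrays and missed without IRI 2 (adjusted p = 0.0530) or IRI 3 (0.0588), within the slide that holds both groups (0.0604) and with the replicate block (0.0948), and Angpt2 missed without any 1 of 5 arrays. Without 1 array the count of that list ran from 0 to 4 in IRI. The counts of calls in IRI then ran from 4 to 8 in the sinusoidal list and 3 to 6 in the junction list. They ran from 6 to 7 among transcription factors and 7 to 10 in the notch and vessel tone list. Oit3, Ace, Gja5, Eng, Rspo3, Vegfb and Tfpi also missed in IRI without certain single arrays.

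Between IRI and non-IRI, 0 of the 78 list probes passed, where 2.82% of all probes did. The smallest adjusted p belonged to Maf, a transcription factor of sinusoidal endothelium and macrophages. Its levels were 3.05, 2.66 and 2.62 in IRI and 1.94, 1.22, 2.12 and 1.41 in non-IRI, which did not overlap, for a difference of 1.105 ± 0.26 (adjusted p = 0.0773). Edn1 was at -3.09, -2.45 and -2.66 in IRI and at -0.12, -1.16, 0.31 and -2.04 in non-IRI, for a difference of -1.98 ± 0.53 (adjusted p = 0.122). The macrophage list averaged 3.93 over the IRI arrays and 3.13 over the non-IRI arrays, and its part in the Maf difference was not tested. The growth factor Pgf (1.43 ± 0.52, adjusted p = 0.250), the secreted protein Reln on A_44_P294737 (1.11 ± 0.37, adjusted p = 0.215) and the junction protein Jam2 on A_44_P787848 (-1.35 ± 0.53, adjusted p = 0.282) did not pass. Their second probes gave 0.79 ± 0.37 for Reln (A_44_P1026292, adjusted p = 0.363) and -0.05 ± 0.21 for Jam2 (A_42_P685050, adjusted p = 0.938).

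The genes with a symbol whose course over the 7 liver arrays came closest to the mean course of the 9 kept member probes were Slc24a3, Fam13b, Foxs1, Sema7a, Mtmr9, Ica1, Snrpn and Ihh. Likeness was the root-mean-square difference after each probe's mean was subtracted, which ran from 0.180 for Slc24a3 to 0.207 for Ihh over 7 arrays. The mean course itself was lowest on IRI 1 (-0.58), highest on non-IRI 4 (0.72) and between -0.39 and 0.20 on the others, and it averages members that differ in their courses. Foxs1, a forkhead factor, had 0.68, 1.55 and 1.01 in IRI and 1.56, 1.04, 1.18 and 1.55 in non-IRI.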

How the data were processed

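RNA of 8 samples was measured on Agilent Whole Rat Genome arrays with Cy3 label, after TRIzol extraction per the labels. The deposited scanner files give spot intensity, background-subtracted by Feature Extraction 11.0.1.1 per the file headers (or 9.1, per the submitters' processing notes). An alternative was the deposited table of processed values, which holds log2 values that match the scanner signals scaled to each array's 75th percentile and centred on each probe's median, as found by comparison (r at least 0.9997).

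Here, log2 of the processed signal minus the array's 75th percentile was taken, 45 to 117 spots per array marked as outliers or non-uniform were left out, as were control spots, and spots of a probe were averaged. No build is named by the arrays. Symbols came from RefSeq accessions, for 17541 of 41012 probes. A model of group means over all 8 arrays was fitted in R 4.3.3 with limma 3.58.1 (5 residual and 2.86 prior degrees of freedom). Benjamini-Hochberg adjustment ran over all probes tested, with a threshold of 0.05. The fit was tested on simulated data. The number of arrays limits the precision.

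The members, lists and alternatives were chosen with earlier results of these data known. Chosen for naming were all members, up to 3 genes of each list with the smallest p in IRI against non-IRI, and called genes up to 8 a list. The 8 genes nearest in course were chosen too. Of these, Vegfd, Icam1, Foxc2 and Dll1 are not described. Genes that stood apart on non-IRI 4 were added after their values were seen, and Nectin2 so that both lower junction genes appear. Alternatives were scaling, background, filter, probe rule, authors' table, weights, prior, slide, replicate block and leaving out each array. Same-numbered IRI and non-IRI arrays deviated together (r = 0.186, 0.162 and 0.103 across probes), so the replicate number was also fitted as a block. For these arrays the number is the position on the slide, but in vitro, labelled replicate 1 and so in block 1, lies at position 4, and non-IRI 4 is alone in its block and adds nothing to the blocked comparisons. Whether in vitro belongs with block 1 could not be checked, and blocked values against in vitro rest on its label. The files hold no mean spot signal, so the normexp model used the median signal. Stab2 is not analysed here.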

Additional observations from a re-analysis of the deposited data

Results flagged for a closer look

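Dixon's ratio, the gap of the outermost of the 4 non-IRI arrays over their range, was checked for 74 probes and list means, and 2 exceeded its limit, while chance gives about 1 in 20. For Kdr, the gap of non-IRI 4 to the next value took 0.918 of the range of the 4 non-IRI arrays. For Aplnr, the apelin receptor, it took 0.902, with non-IRI 4 at -1.75 and non-IRI 1 to 3 at -3.70, -3.82 and -3.91. In both it is the same array, and the cause was not tested.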

How the results depend on the processing

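The 6 member calls against in vitro held under every alternative that leaves out 1 liver array and within the slide that holds IRI and in vitro. With normexp, and with normexp after bright background spots were set to the array's median (added after the data were seen), 3 probes passed in each comparison with in vitro; on probes well above background on all 8 arrays 1 was left to pass, since only Kdr was kept. In IRI against non-IRI the count of members rose from 0 to 1 with the replicate block and, leaving out single arrays, ran from 0 to 1. The block changed the calls of Sox17 and Cldn5 given in the report and no other member's; among named list genes it ended calls of Vegfc, Vegfb, Rspo3, Gja5 and Eng in IRI against in vitro and of Fli1, Vegfb, Ednrb and Jam2 in non-IRI against in vitro. With array weights the lists gave 1 call (growth factors), 1 (transcription factors), 2 (sinusoidal) and 1 (notch and vessel tone) in IRI against non-IRI; the transcription factors gave 1 with median scaling and 1 with a trended, robust prior; leaving out single arrays, the growth factor and notch lists ran from 0 to 1. Median scaling moved the median of all probes in IRI against in vitro from -0.27 to -0.57. Sox17 in non-IRI against in vitro also passed with array weights (adjusted p = 0.0351) and a trended, robust prior (0.0434). Within the slide that holds IRI and in vitro, Vegfc (adjusted p = 0.0604), Vegfb A_44_P159040 (0.0764) and Eng (0.0725) no longer passed. List counts against in vitro fell under normexp, the notch and vessel tone list from 9 to 3 and 11 to 3, the junction list from 5 to 3 and 8 to 3, the transcription factors from 6 to 2 in both comparisons, and the growth factors from 4 and 5 to 0. On probes well above background on all 8 arrays, which leaves fewer to test, the junction list fell from 5 to 2 and 8 to 3, the sinusoidal list from 6 to 2 and 5 to 2, and the transcription factors from 6 to 3 in IRI. The growth factor count in IRI was also 1 with quantile normalization and 0 without a filter on dim probes. With array weights, the sinusoidal list rose from 6 to 10 and from 5 to 11, and the junction list from 5 to 9 in IRI. Of the 78 list probes, the 16 above all other liver arrays on non-IRI 4 numbered 15 with median scaling, beside 0.367% of all probes. They numbered 16 with quantile normalization (0.403%) and 16 with the authors' table (0.407%). With normexp they numbered 17 beside 24.4%, so the share in the lists was no higher than among all probes. With bright background spots reset they numbered 8 (0.137%), and on probes well above background on all 8 arrays 6 of 47 (0.147%).

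Differences that changed sign were small or dim. The models N and B are normexp on all spots and normexp with bright background spots reset. In IRI against non-IRI, Lyve1 A_44_P156690 became -0.27 under N, -0.054 under B and -0.24 when blocked on the replicate number, and ran from -0.24 to 0.46 leaving out single arrays. Lyve1 A_44_P588315 became -0.14 under B, -0.11 with array weights and -0.30 when blocked, and ran from -0.30 to 0.42. Esam ran from -0.14 to 0.25, while Tie1 A_44_P395771 became -0.24 and Rspo3 -0.44 under N. In IRI against in vitro, Sox17 became -0.16 under N, -0.19 under B and -0.26 when blocked, and ran from -0.18 to 0.94. Under N and B, Cdh5 became -0.11 and -0.13, Ace -0.039 and -0.067, Rspo3 -0.049 and -0.075, and Plvap -0.060 and -0.086. In non-IRI against in vitro, Ace became -0.085 and Plvap -0.061 under B. The cause was not tested.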
